A study of Mus musculus with 19 samples.

Results

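The 10 genes described here make enzymes and inhibitors that cut, protect and crosslink the extracellular matrix of the liver. They are 3 tissue inhibitors of metalloproteinases (Timp1, Timp2 and Timp3), 3 matrix metalloproteinases (Mmp2, Mmp13 and Mmp14), 3 lysyl oxidases (Lox, Loxl1 and Loxl2) and Adamts2. They were chosen by name, with earlier results of these data known, as 10 of the 52110 named entries of the expression table. All 10 had a mean of at least 0.1 FPKM over the 19 samples, so they were among the 17311 genes tested. FPKM counts fragments per kilobase of a gene and scaled to what was mapped in that sample, so levels of genes of different length can be set side by side.

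The samples were livers of wild-type mice in 4 groups that crossed diet with treatment. NC_sham (n = 5) received normal chow and a sham procedure, and NC_RIC (n = 5) received normal chow and remote limb ischemic conditioning (RIC), in which blood flow to a limb is interrupted and restored. CDAHFD_sham (n = 5) and CDAHFD_RIC (n = 4) received the same procedures on a choline-deficient, amino acid-defined high-fat diet that is used to produce steatohepatitis. Strain, sex, age, time on the diet and number of RIC sessions are not in the labels, and replicates are not said to be separate animals, so p-values measure only the spread between these samples.

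Matrix turnover in the liver is a balance of several activities. Metalloproteinases cleave collagens and other matrix proteins, and TIMPs bind their active sites and block them. Lysyl oxidases link collagen and elastin chains covalently, which makes the fibres harder to cleave, and ADAMTS2 removes the amino-terminal propeptide of fibrillar procollagens so that fibres can form. In the injured liver, activated hepatic stellate cells are a known source of TIMP1, MMP2, lysyl oxidases and collagen, and macrophages are a known source of MMP13 and MMP12 in mice.

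The genes are not clustered in the mouse genome (GRCm38, GENCODE gene spans). Among the inhibitors, Timp1 is at chrX:20870166-20874735 on the plus strand, Timp2 at chr11:118301069-118355740 on the minus strand and Timp3 at chr10:86300372-86349506 on the plus strand. The proteases are Mmp2 at chr8:92827291-92853420, Mmp13 at chr9:7272514-7283331 and Mmp14 at chr14:54431612-54445364, all on the plus strand. Loxl1 is at chr9:58287738-58313186 on the minus strand, Loxl2 at chr14:69609068-69695834 on the plus strand and Adamts2 at chr11:50602084-50807573 on the plus strand. Timp1 lies inside Syn1 and Timp3 inside Syn3, both on the opposite strand, and Loxl2 overlaps the antisense gene Gm27177. Timp2 overlaps Cep295nl on the same strand, which reached 0.0972 FPKM in its highest sample. No label says whether the counting used strand. Only whole gene spans were compared, not exons, so reads of these pairs may not be separable, which was not tested. Syn1 reached 0.281 FPKM in its highest sample and Syn3 less, while Gm27177 had a mean of 0.455 FPKM in NC_sham, 0.814 in CDAHFD_sham and 0.843 in CDAHFD_RIC.

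Timp1 and Mmp13 are shown by sequence because both were at or near 0 on chow and were present in every CDAHFD liver. Their means also differed in opposite directions between the CDAHFD groups, although the Mmp13 difference did not pass its test. The 120 bases before the annotated start of each gene (RefSeq, GRCm38.p6, plus strand) follow 5′ to 3′. Capitals mark the AP-1 motif TGANTCA and the ETS-type motif AGGAAG, the letters searched on both strands.
Mmp13, chr9:7272394-7272513: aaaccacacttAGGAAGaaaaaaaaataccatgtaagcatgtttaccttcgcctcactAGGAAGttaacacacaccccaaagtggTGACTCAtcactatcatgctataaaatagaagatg
Timp1, chrX:20870046-20870165: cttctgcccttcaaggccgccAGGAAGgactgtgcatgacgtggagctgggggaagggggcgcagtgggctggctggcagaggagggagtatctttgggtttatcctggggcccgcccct
RefSeq windows of 300 bases around the start were on hand for 6 members (Timp1, Timp2, Timp3, Mmp13, Mmp14 and Adamts2). TGANTCA was in the Mmp13 window, with its first base at position -35, and in no other of the 6; 7.81% of 32851 such windows hold it. The related letters TGAGTAA were in the Timp1 window, 27 bases into the transcript and so outside the stretch printed, and 2.68% of windows hold them. AGGAAG was in the windows of Mmp13, Timp1, Timp3 and Mmp14, and in 35.4% of all windows. TATAAA, left in lower case, was in the Mmp13 window at -16 and in 13.6% of windows. These are matches of letters and not measured binding sites.

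Depth estimated from the values of single-exon genes was 15.9 to 26.4 M reads per sample, which makes 1 read worth 0.0426 to 0.0706 FPKM in Timp1 and 0.0142 to 0.0235 FPKM in Mmp13. The FPKM of a sample summed to 482227 to 512036 on chow, 441294 to 495052 in CDAHFD_sham and 418945 to 443297 in CDAHFD_RIC. The liver label fitted the markers: 4 hepatocyte genes summed to at least 31751 FPKM in every sample, while 3 adipose markers summed to at most 0.224 FPKM. No 2 samples were copies of each other. In bulk tissue, fewer cells of a type and less RNA per cell cannot be told apart, and this applies to every level below.

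In NC_sham livers, 3 of the genes were above 1 FPKM and the other 7 were at 0.230 FPKM or less. Timp3 had the highest mean (1.87 ± 0.669 FPKM, SD), then Mmp14 (1.77 ± 0.119) and Timp2 (1.31 ± 0.302). Timp3 and Mmp14 were not separable in this order, since Timp3 was the higher in only 2 of the 5 samples, whereas Mmp14 exceeded Timp2 in 5 of 5. Below them came Mmp2, Loxl2, Adamts2 and Loxl1, at means of 0.143 to 0.230 FPKM. The lowest were Lox (0.0323 ± 0.0184 FPKM), Mmp13 (0.0156 ± 0.0151 FPKM) and Timp1 (listed at 0 in all 5). In reads, Lox rested on 1 to 4 estimated reads per NC_sham sample and Mmp13 on at most 2.

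**Figure D1:**
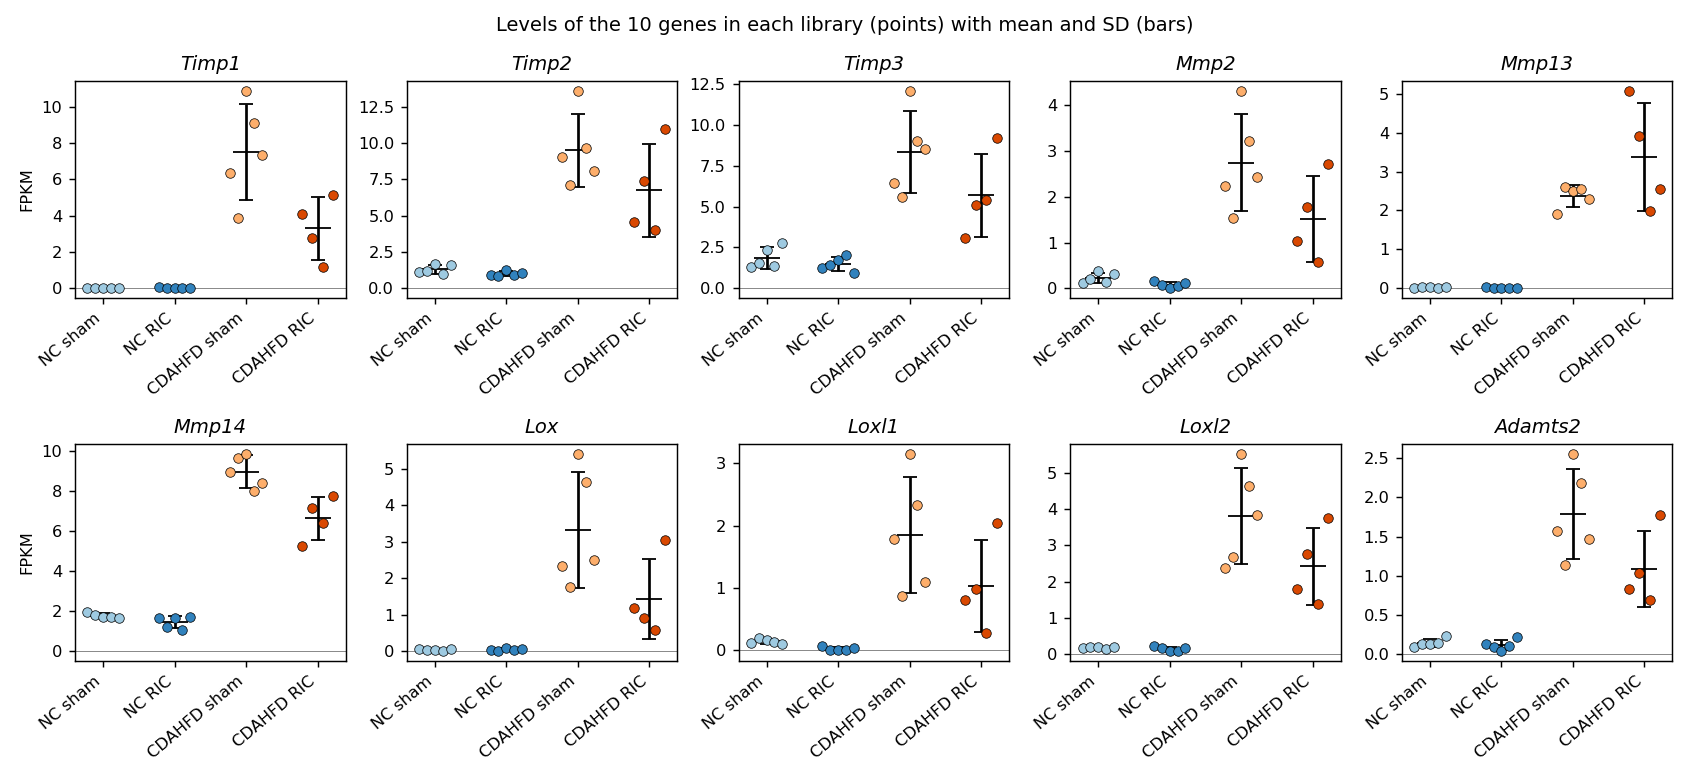
FPKM of the 10 genes in each of the 19 samples, 1 panel per gene with its own linear axis; points are samples, horizontal bars are group means and error bars are SD (n = 5, 5, 5 and 4). In every panel all 9 CDAHFD samples lie above all 10 chow samples.

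CDAHFD raised every one of the 10 genes in sham-treated mice. The rise took Timp1 from 0 to several FPKM, Timp2, Timp3 and Mmp14 to 4.45 to 7.25 times their chow mean, and Mmp2, Loxl1, Loxl2 and Adamts2 to 12.0 to 21.2 times. All 10 passed limma's test of CDAHFD_sham against NC_sham after Benjamini-Hochberg adjustment, beside 59.1% of all genes tested that rose. For all 10, every CDAHFD_sham sample lay above every NC_sham sample, which 47.2% of all genes also showed, so passing was common and the size is the more informative part. Differences are given on the log2(FPKM + 1) scale, where their median was 1.78 over the 10 genes and 0.34 over all genes tested. Timp1, Mmp13, Lox and Loxl1 had means under 0.1 FPKM over the 10 chow samples and entered the test only through the CDAHFD samples, so a rise was built into their being tested.

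The inhibitors differed in how they started. Timp1, the inducible member of the family, was listed at 0 in all 5 NC_sham samples, and in CDAHFD_sham replicates 1 to 5 it was at 6.33, 3.89, 10.9, 9.09 and 7.34 FPKM. The lowest of these corresponds to 69.6 estimated reads, so its detection does not hang on single reads. Its log2 difference of 3.03 (SE 0.226, adjusted p = 1.47e-09) was the largest of the 10, and because chow values were 0 its size depends on the pseudocount of 1. Timp2, which also takes part in activating pro-MMP2, was at 1.13, 1.18, 1.65, 0.984 and 1.61 FPKM in NC_sham and at 9.06, 7.12, 13.6, 9.64 and 8.06 FPKM in CDAHFD_sham. The groups were far apart, at a ratio of means of 7.25 (log2 difference 2.16, SE 0.192, adjusted p = 1.40e-08). Timp3, which binds to the matrix and also inhibits sheddases of the ADAM family, went from 1.28, 1.57, 2.35, 1.37 and 2.80 FPKM to 6.48, 5.61, 12.1, 9.03 and 8.53 FPKM. This was the smallest ratio of means among the members, 4.45 (log2 difference 1.69, SE 0.221, adjusted p = 1.90e-06).

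Among the proteases, the rise was the most even for Mmp14, the membrane-anchored collagenase that activates pro-MMP2. It was at 1.95, 1.82, 1.70, 1.71 and 1.65 FPKM in NC_sham and at 8.91, 9.65, 9.85, 7.96 and 8.36 FPKM in CDAHFD_sham. With a coefficient of variation of 9.06% in CDAHFD_sham, it had the smallest adjusted p of the 10 genes (2.01e-11) at a log2 difference of 1.84 (SE 0.0995). Mmp2, gelatinase A, was at 0.116, 0.203, 0.376, 0.146 and 0.308 FPKM on chow and at 2.24, 1.53, 4.32, 3.21 and 2.44 FPKM on CDAHFD, a ratio of means of 12.0 (log2 difference 1.57, SE 0.192, adjusted p = 8.53e-07). Mmp13, the main interstitial collagenase of mice, was at 0, 0.0344, 0.0218, 0 and 0.0220 FPKM in NC_sham. In CDAHFD_sham it stood at 1.91, 2.60, 2.51, 2.54 and 2.29 FPKM, a narrow range with a coefficient of variation of 12.0% (log2 difference 1.73, SE 0.132, adjusted p = 1.95e-09). No fold is given for Mmp13 because its chow level rested on 0 to 2 estimated reads a sample.

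The crosslinking enzymes rose from a low base. Loxl2, which acts on collagen IV as well as on fibrillar collagen, was at 0.176, 0.206, 0.184, 0.148 and 0.184 FPKM in NC_sham and at 2.37, 2.68, 5.53, 4.63 and 3.84 FPKM in CDAHFD_sham. Its ratio of means was 21.2 (log2 difference 1.98, SE 0.171, adjusted p = 9.83e-09). Lox, the founding member of the family, was at 0.0485, 0.0382, 0.0151, 0.0106 and 0.0493 FPKM on chow and at 2.34, 1.77, 5.42, 4.63 and 2.49 FPKM on CDAHFD. Replicates 3 and 4 were well above the other 3 CDAHFD_sham samples for this gene, and the log2 difference was 1.99 (SE 0.219, adjusted p = 2.28e-07). Loxl1, best known for crosslinking elastin, went from 0.121, 0.191, 0.169, 0.129 and 0.106 FPKM to 1.79, 0.871, 3.16, 2.33 and 1.09 FPKM, the widest relative spread of the members in CDAHFD_sham (coefficient of variation 50.5%). Its log2 difference was 1.26 (SE 0.196, adjusted p = 1.55e-05). Adamts2 was at 0.0964, 0.127, 0.133, 0.143 and 0.236 FPKM on chow and at 1.57, 1.14, 2.56, 2.19 and 1.47 FPKM on CDAHFD, a ratio of means of 12.1 (log2 difference 1.26, SE 0.129, adjusted p = 9.39e-08).

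The order of the levels changed with diet. In CDAHFD_sham it ran Timp2, Mmp14, Timp3, Timp1, Loxl2, Lox, Mmp2, Mmp13, Loxl1 and Adamts2. The 3 leading genes did not separate, since Timp2 exceeded Mmp14 in 3 of 5 samples and Mmp14 exceeded Timp3 in 2 of 5. Timp1 was above Loxl2 in 5 of 5 samples, so the 3 inhibitors and Mmp14 stood together above the rest. Timp1 thus went from the lowest of the 10 on chow to the fourth on CDAHFD.

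The diet comparison within RIC-treated mice had the same direction. All 10 genes passed in CDAHFD_RIC against NC_RIC, beside 56.1% of genes tested that rose, and all 10 had no overlap between the groups, beside 46.5%. The log2 differences ran from 0.87 for Adamts2 (adjusted p = 2.44e-05) to 2.07 for Mmp13 (adjusted p = 6.63e-10), with a median of 1.45 against 0.31 over all genes. Timp1 (log2 difference 1.98, adjusted p = 1.16e-06) was second here, and Mmp13 led. Scaling mattered to the size of the diet differences: the median over all genes in the sham comparison moved from 0.34 to 0.01 with median-ratio scaling and to -0.03 with quantile normalization. The 10 genes passed in both diet comparisons under either scaling.

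**Figure D2:**
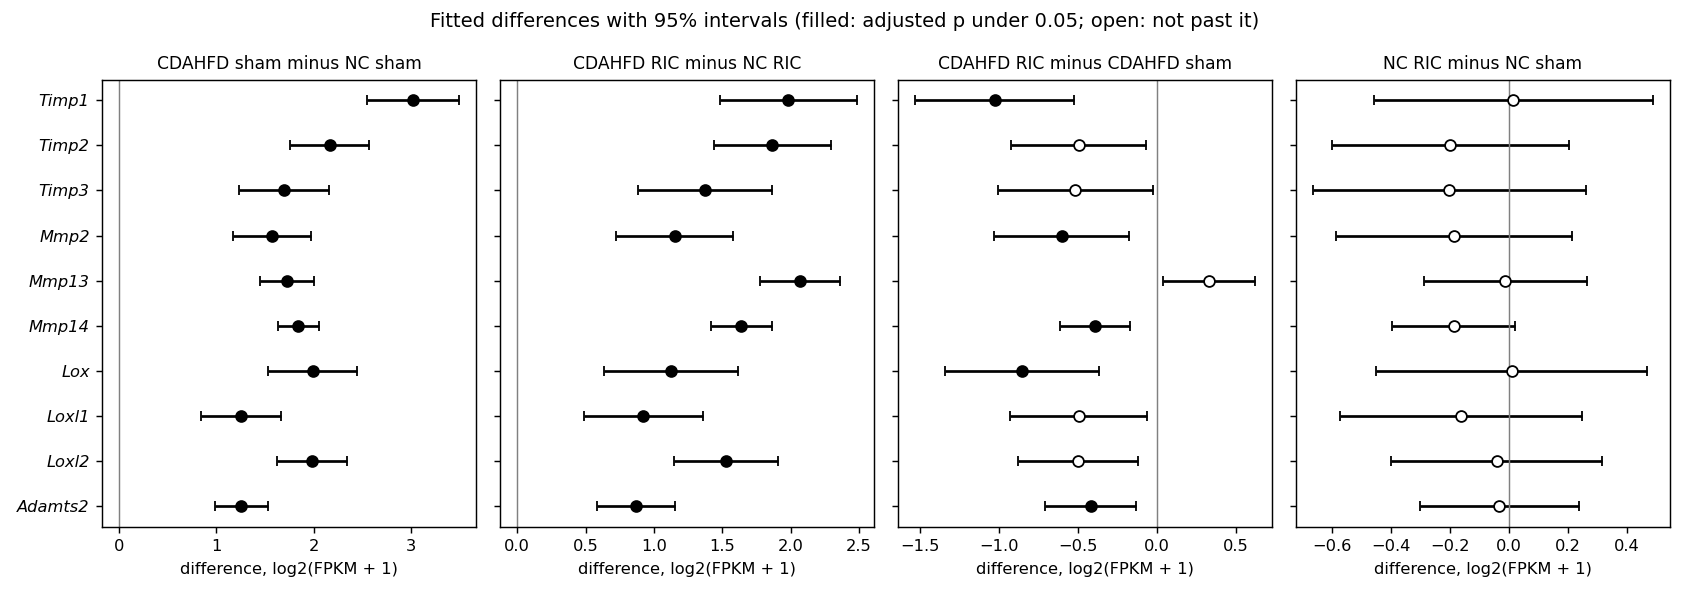
Differences of the 10 genes on the log2(FPKM + 1) scale in 4 comparisons, with 95% confidence intervals from limma; filled points passed an adjusted p of 0.05, the grey line marks 0 and each panel has its own scale. All 10 points of both diet comparisons are filled, 5 points are filled for RIC on CDAHFD, and none is filled for RIC on chow.

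RIC in CDAHFD-fed mice went with lower levels of 9 of the 10 genes and a higher mean of the tenth, Mmp13. Timp1, Mmp2, Mmp14, Lox and Adamts2 fell by limma's test, Timp2, Timp3, Loxl1 and Loxl2 had lower means that missed the threshold, and Mmp13 did not pass. The 5 that fell stand beside 14.3% of all genes tested that fell and 6.41% that rose. Group means were between 0.428 and 0.740 of the sham level for the 9, and the median log2 difference of the 10 was -0.50 against -0.06 over all genes. This comparison shares the CDAHFD_sham samples with the sham diet comparison, so a high sham sample enters both.

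Timp1 was at 4.11, 2.77, 1.15 and 5.14 FPKM in CDAHFD_RIC replicates 1 to 4, a mean of 3.29 ± 1.72 against 7.51 ± 2.67 FPKM in CDAHFD_sham. The groups overlapped at their edges, since RIC replicates 1 and 4 lay above the lowest sham sample at 3.89. Timp1 fell by 1.03 on the log2 scale (SE 0.240, 95% interval -1.53 to -0.52, adjusted p = 0.00678), the largest fall of the members on this scale. Lox was at 1.17, 0.918, 0.566 and 3.05 FPKM, a mean of 1.42 ± 1.11 against 3.33 ± 1.60. Replicate 4 alone reached the sham range, and Lox fell by 0.86 (SE 0.233, interval -1.35 to -0.37, adjusted p = 0.0152). The order of Timp1 and Lox depended on the scale: with a pseudocount of 0.1 the differences were -1.27 for Timp1 and -1.29 for Lox, and the ratios of means were 0.439 and 0.428.

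Mmp14 was the member whose CDAHFD groups did not overlap, a state that 10.4% of genes tested showed in the downward direction. Its CDAHFD_RIC values were 5.25, 7.13, 6.38 and 7.72 FPKM, and the lowest sham value was 7.96. Although small, with a ratio of means of 0.740, the fall of 0.39 on the log2 scale passed (SE 0.106, interval -0.61 to -0.17, adjusted p = 0.0147). Mmp2 was at 1.03, 1.77, 0.568 and 2.71 FPKM in CDAHFD_RIC, and replicates 2 and 4 lay within the sham range of 1.53 to 4.32. It fell by 0.60 (SE 0.204, interval -1.03 to -0.18, adjusted p = 0.0425). Adamts2 was at 0.834, 1.03, 0.692 and 1.78 FPKM and fell by 0.42 (SE 0.137, interval -0.71 to -0.13, adjusted p = 0.0365); its replicate 4 also lay within the sham range of 1.14 to 2.56.

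Timp2 and Timp3 overlapped between the CDAHFD groups, Timp2 in replicates 2 and 4 and Timp3 in replicate 4 alone. Timp2 was at 4.59, 7.40, 4.01 and 11.0 FPKM with RIC, and its log2 difference was -0.50 (interval -0.92 to -0.07, adjusted p = 0.0894). Timp3 was at 3.06, 5.12, 5.40 and 9.20 FPKM, with a difference of -0.52 (interval -1.01 to -0.03, adjusted p = 0.123). Among the crosslinkers, Loxl1 was at 0.806, 0.985, 0.279 and 2.05 FPKM and differed by -0.50 (adjusted p = 0.0963). Loxl2 was at 1.79, 2.76, 1.39 and 3.75 FPKM and differed by -0.50 (adjusted p = 0.0576). For these 4 the unadjusted intervals lie below 0 but the adjusted p does not pass, which does not show that the levels were equal. Every SE and interval from limma uses a spread shared by all groups, chow included. Genes low on chow vary little there, so intervals between the CDAHFD groups can be too narrow.

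Mmp13 was the exception in direction. Its CDAHFD_RIC values were 5.08, 3.92, 1.98 and 2.55 FPKM, against 1.91 to 2.60 in sham. Replicates 1 and 2 were above every sham sample while replicates 3 and 4 lay within the sham range, and the mean of 3.38 ± 1.40 FPKM was 1.43 times the sham mean of 2.37 ± 0.283. The difference of 0.33 (SE 0.140, interval 0.04 to 0.62) did not pass (adjusted p = 0.102). It was 0.15 without CDAHFD_RIC replicate 1, and 0.50 without CDAHFD_RIC replicate 3, where Mmp13 passed as a rise (adjusted p = 0.0120), as it also did with quantile normalization (adjusted p = 0.0473).

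The calls in this comparison rested on few samples. Timp1 passed whichever of the 19 samples was left out, with an adjusted p of at most 0.0233, but not when the fit held only the CDAHFD groups (adjusted p = 0.0710), where none of the 10 passed. Of the 10 genes, 2 fell without CDAHFD_RIC replicate 1, 2 fell and Mmp13 rose without CDAHFD_RIC replicate 3, 3 fell without CDAHFD_sham replicate 3 or 4, and 9 fell without CDAHFD_RIC replicate 4. Lox did not pass without CDAHFD_RIC replicate 3 (adjusted p = 0.0626), Mmp14 not without CDAHFD_RIC replicate 1 (0.0583), Adamts2 not in 5 of the 19 omissions (adjusted p up to 0.128) and Mmp2 not in 12 (up to 0.169, with a difference of -0.40 without CDAHFD_RIC replicate 3). Rescaling every sample to a common FPKM sum left Timp1 and Lox as the 2 that passed. Over the settings other than omission of 1 sample, Mmp2 passed in 2 of 10 and Adamts2 in 2 of 9. Timp1 and Lox each passed in 9 of 10 and Mmp14 in 8 of 10. The direction of each of the 10 differences was the same in every setting tried.

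**Figure D3:**
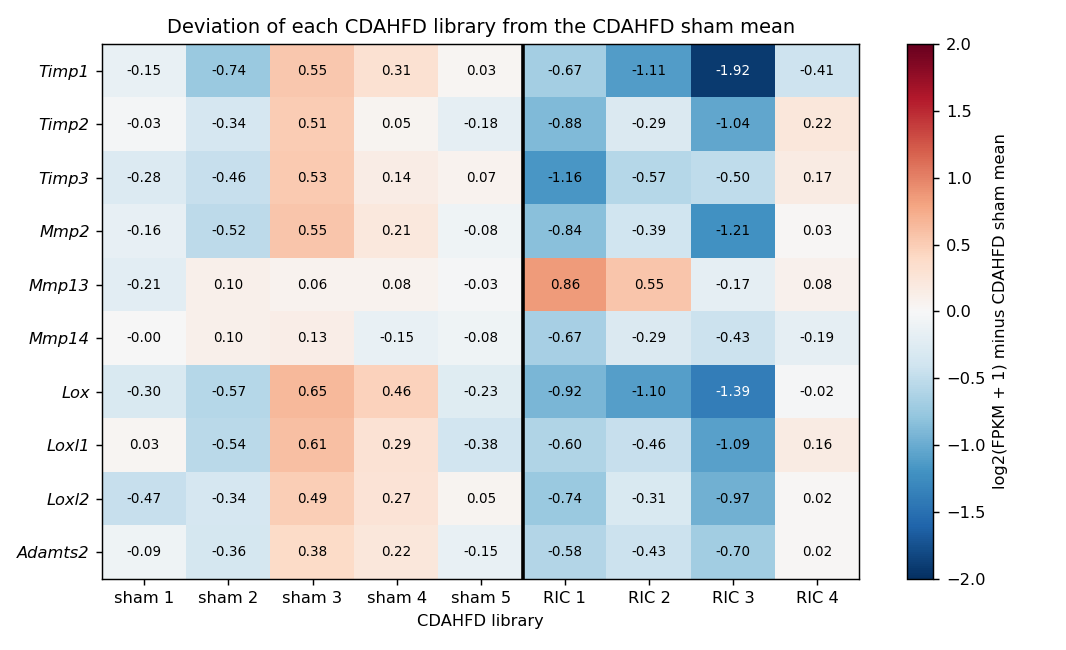
Deviation of each CDAHFD sample from the CDAHFD_sham mean on the log2(FPKM + 1) scale, genes in rows and samples in columns, with the value printed in each cell. CDAHFD_RIC replicate 3 is below the sham mean for all 10 genes, replicates 1 and 2 for 9 and replicate 4 for 3; Mmp13 is the most above it in replicates 1 and 2.

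Most of the genes shared the same highest and lowest samples within each CDAHFD group. CDAHFD_sham replicate 3 was the highest of its group for 9 of the 10 genes, all but Mmp13, and replicate 2 was the lowest for 7. In CDAHFD_RIC, replicate 4 was the highest for 9, again all but Mmp13, and replicate 3 the lowest for 8. Replicate 1 was the highest for Mmp13 and the lowest for Timp3 and Mmp14. On the log2(FPKM + 1) scale, CDAHFD_RIC replicate 4 was below the sham mean for 3 of the 10 genes and the other replicates for 9 or 10.

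Across the 9 CDAHFD samples, the 8 members other than Mmp13 and Mmp14 varied together. As a description over these samples, which share 2 treatment groups and the same libraries, Pearson's r on the log2(FPKM + 1) scale ran from 0.674 to 0.980 over their 28 pairs, with a median of 0.907. Mmp14 followed them less closely, at r of 0.573 to 0.753, and Mmp13 had negative values with the 9 other members, from -0.610 to -0.130. The 5 genes whose pattern was most like that of Timp1 were Gm9844, Serpinh1, Alg1, Erp29 and Anxa1, at r of 0.964 to 0.972. Serpinh1 encodes the collagen chaperone HSP47 and Anxa1 a phospholipid-binding protein. Most like the mean of the 10 members were Col3a1, Col6a3, Efemp1, Cdh6 and Sparc, at r of 0.982 to 0.989, which include chains of collagen III and collagen VI and the collagen-binding matrix protein SPARC.

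The balance of Timp1 to Mmp13 differed between the CDAHFD groups. The ratio of their FPKM was 3.32, 1.49, 4.34, 3.58 and 3.20 in CDAHFD_sham and 0.808, 0.707, 0.583 and 2.01 in CDAHFD_RIC. Timp1 was above Mmp13 in all 5 sham samples and below it in 3 of the 4 RIC samples, with replicate 4 as the exception. On the scale of log2((Timp1 + 0.1)/(Mmp13 + 0.1)) the mean was 1.55 ± 0.578 in sham and -0.13 ± 0.764 with RIC, a difference of -1.68 (two-sided exact permutation test, n = 5 and 4, p = 0.0317; the smallest p this design allows is 0.0159). The pair was set after results for both genes were known, so this p describes the samples and is not independent support. With any 1 sample left out the difference stayed between -2.06 and -1.48 and the same exact test gave p = 0.0286 to 0.0714, under 0.05 in 2 of 9 omissions (CDAHFD_sham replicate 2 and CDAHFD_RIC replicate 4). In those 2 the exact test gave p = 0.0286 and 0.0357, the smallest possible without a sham or a RIC sample. The higher p after an omission thus partly reflects fewer permutations.

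**Figure D4:**
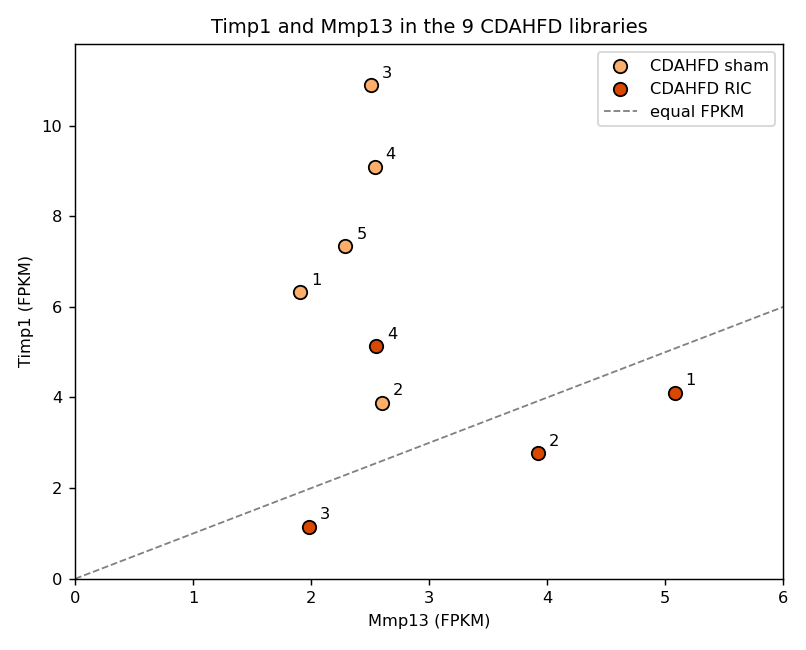
Timp1 against Mmp13 FPKM in the 9 CDAHFD samples, with a dashed line where both are equal; points are samples, coloured by group and labelled by replicate. The 5 sham samples and CDAHFD_RIC replicate 4 lie on the Timp1 side of the line, and CDAHFD_RIC replicates 1, 2 and 3 on the Mmp13 side.

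Summed over the 3 members of each class, the TIMP level was above the MMP level in every CDAHFD sample. That order holds only for the 3 proteases summed here. Mmp12 and Mmp7, outside the sum, had means of 29.6 and 29.7 FPKM in CDAHFD_sham, each above the mean TIMP sum. The TIMP sum was 25.4 ± 7.46 FPKM in CDAHFD_sham and 15.7 ± 6.70 in CDAHFD_RIC, against 3.18 ± 0.957 in NC_sham and 2.49 ± 0.476 in NC_RIC. The MMP sum was 14.1 ± 1.50 FPKM in CDAHFD_sham and 11.5 ± 1.88 in CDAHFD_RIC. The ratio of the TIMP sum to the MMP sum was 1.67, 1.21, 2.19, 2.03 and 1.83 in CDAHFD_sham and 1.03, 1.19, 1.18 and 1.95 in CDAHFD_RIC. RIC replicates 1, 2 and 3 lay below the lowest sham sample and replicate 4 within the sham range; the difference was not tested. In NC_sham the ratio ran from 1.17 to 2.23, again only for the 3 proteases summed. Mmp19, also outside the sum, had a mean of 10.15 FPKM in NC_sham, above the mean TIMP sum there, and 17.2 in CDAHFD_sham. The sum of the 3 lysyl oxidases was 8.99 ± 3.71 FPKM in CDAHFD_sham and 4.88 ± 2.83 in CDAHFD_RIC.

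RIC in chow-fed mice left all 10 genes without a call. Of all genes tested, 0.393% passed in NC_RIC against NC_sham by limma. The members' log2 differences ran from -0.20 to 0.01 with adjusted p of 0.462 to 1, and none had an unadjusted p under 0.05. The pseudocount set the size for the lowest genes: at 0.1 the difference was -1.03 for Loxl1 and -0.90 for Mmp2, and neither passed. Loxl1 was the gene whose groups did not overlap, a state that 2.74% of genes showed downward: it was at 0.0705, 0, 0, 0 and 0.0374 FPKM in NC_RIC, below all 5 NC_sham values. These are 0 to 5 estimated reads a sample, and the difference did not pass.
Mmp2 was also low there, at 0.167, 0.0744, 0, 0.0447 and 0.108 FPKM, and it overlapped NC_sham. Timp1 was at 0.0530 FPKM in NC_RIC replicate 1, which is 1 estimated read, and at 0 in the other 4. At this depth a fall of the genes near 0 on chow was not detectable.

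Whether RIC acted differently on the 2 diets was tested as an interaction, in which 4.27% of all genes passed and none of the 10 did. Timp1 had the smallest p, at a difference of -1.04 between the RIC effects (unadjusted p = 0.00526, adjusted p = 0.0787), then Lox at -0.87 (unadjusted p = 0.0140, adjusted p = 0.131). For Mmp13 it was 0.34 (adjusted p = 0.336). The fall of Timp1 on CDAHFD is therefore not shown to differ from its difference on chow, where Timp1 was listed at 0 in 9 of 10 samples.

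Other proteases of the same family also rose with the diet. Of 20 further metalloproteinases, 9 had enough expression to be tested, 8 rose in CDAHFD_sham, beside 59.1% of all genes, and Mmp11 did not pass. Mmp12, macrophage elastase, rose the most, from 0.0169 FPKM in NC_sham to 29.6 ± 4.63 in CDAHFD_sham (log2 difference 4.89, adjusted p = 4.08e-14), and it was at 37.3 ± 12.9 with RIC (0.26, adjusted p = 0.316). Mmp7, matrilysin, known from injured epithelia, rose from 0.356 to 29.7 ± 18.6 FPKM (4.24, adjusted p = 5.04e-07). With RIC it was at 25.5 ± 27.0 FPKM, a spread larger than its mean, and did not pass. Both had higher mean FPKM in CDAHFD_sham than any of the 10 members, as did Mmp19 at 17.2 FPKM. Mmp23 was the only one of the 9 to fall with RIC on CDAHFD, by 0.40 (adjusted p = 0.0270). As for the members, a gene absent on chow could be tested only because it was expressed on CDAHFD.

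Of 18 further ADAMTS proteases, 10 were tested and all 10 rose with the diet, beside 59.1% of all genes. Adamts1, which cleaves proteoglycans such as versican and aggrecan, went from 1.88 ± 0.365 to 11.7 ± 2.88 FPKM and to 4.84 ± 1.96 with RIC. It rose by 2.12 with the diet (adjusted p = 8.45e-09) and fell by 1.14 with RIC (adjusted p = 7.05e-04) beside the 1.03 of Timp1; the 2 falls were not tested against each other. Adamts5, another aggrecanase, fell by 0.62 (adjusted p = 0.00623). With RIC on CDAHFD 5 of the 10 fell, beside 14.3% of all genes, and Adamts6, Adamts14 and Adamts15 rose, by 0.17, 0.34 and 0.21, beside 6.41%. Adamts14 is a close relative of Adamts2 that also processes procollagen, and its rise was opposite in direction to the fall of Adamts2. Of the 3 other inhibitors and lysyl oxidases tested (of 5), Reck, Loxl3 and Loxl4 rose with the diet by 0.30, 0.62 and 0.14, and none passed with RIC. Of 7 ADAM sheddases 6 were tested, of which 4 rose with the diet, a share close to the 59.1% of all genes, led by Adam8 (2.39, adjusted p = 1.09e-10), and none passed with RIC.

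The enzymes that prepare collagen for crosslinking moved with the lysyl oxidases in part. Of 17 collagen maturation genes 15 were tested, and 11 rose, beside 59.1% of all genes, and 1 fell with the diet in sham mice. The one that fell was Bmp1, the procollagen C-proteinase, by 0.52. Serpinh1 went from 1.79 to 16.1 FPKM and to 6.37 with RIC, a rise of 2.57 (adjusted p = 1.19e-08) and a fall of 1.19 (adjusted p = 0.00255). Tgm2, a transglutaminase that crosslinks proteins through glutamine and lysine, rose from 6.82 to 36.8 FPKM and was at 34.2 with RIC, a difference of -0.11 that did not pass. With RIC on CDAHFD 7 of the 15 fell, beside 14.3% of all genes, led by P4ha1, the catalytic subunit of collagen prolyl 4-hydroxylase, which went from 6.76 to 2.09 FPKM (fell by 1.32, adjusted p = 1.12e-05). P4ha1 was also the one gene of this list that fell with RIC on chow, by 0.76 (adjusted p = 0.0115).

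**Figure D5:**
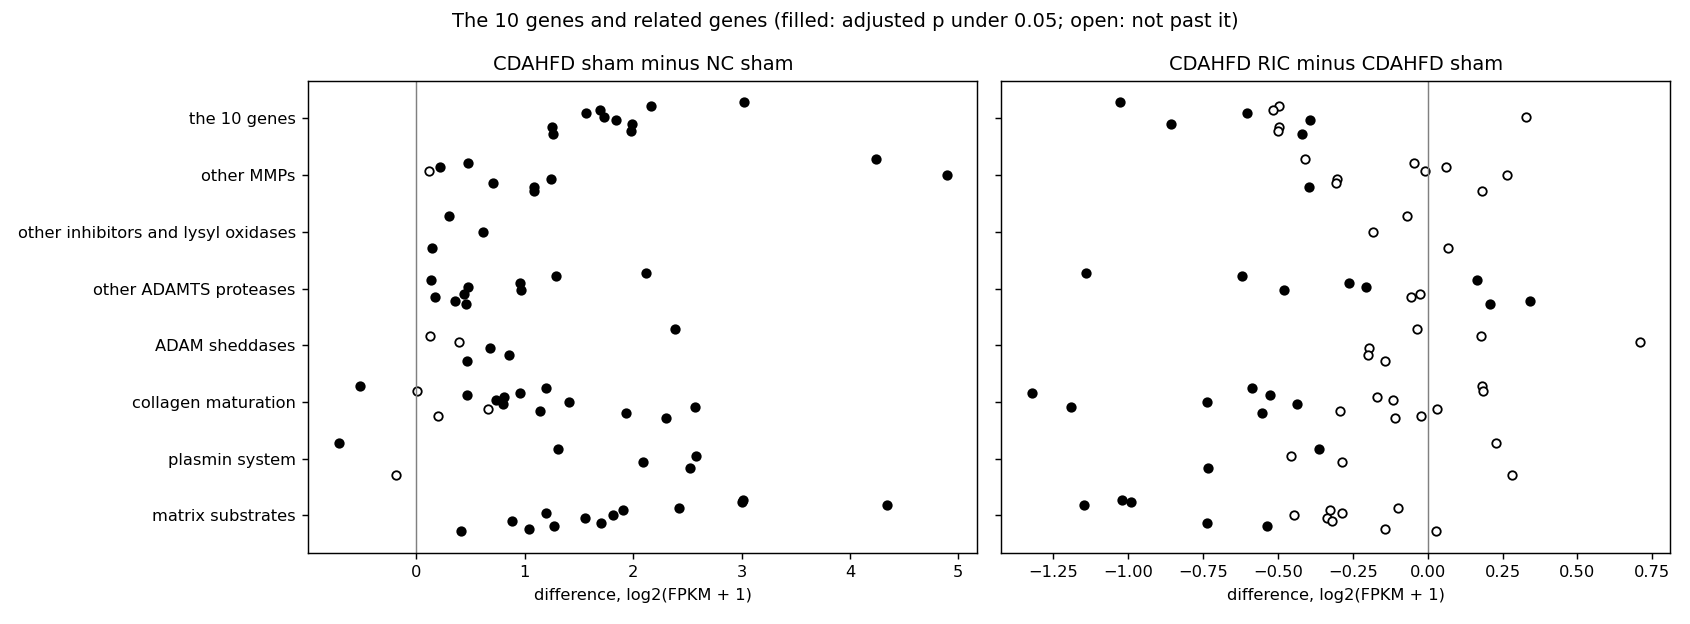
Differences of the 10 members and of the related genes tested, on the log2(FPKM + 1) scale, for CDAHFD_sham minus NC_sham and CDAHFD_RIC minus CDAHFD_sham, 1 row per gene list; filled points passed an adjusted p of 0.05. Nearly all filled points are above 0 for the diet, with Bmp1 and Plg as the 2 below it.

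The plasmin system, which activates pro-metalloproteinases, and the matrix proteins on which all these enzymes act were measured in the same samples. Of 6 plasmin genes tested (of 7), 4 rose with the diet, a share close to the 59.1% of all genes, and Plg, plasminogen itself, fell by 0.72. Plat, tissue plasminogen activator, fell by 0.36 with RIC on CDAHFD (adjusted p = 0.0391). All 13 collagens and other matrix substrates rose with the diet, beside 59.1% of all genes, and 5 fell with RIC on CDAHFD, beside 14.3%. Col3a1 went from 0.623 to 34.9 ± 17.2 FPKM and to 15.4 ± 8.38 with RIC (fell by 1.15, adjusted p = 0.0142), and Col6a3 fell by 0.74 (adjusted p = 0.0201).

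Markers of the cells that make these proteins moved with the diet as well. The 9 stellate cell and myofibroblast markers, all measured, summed to 25.1 to 35.7 FPKM in NC_sham, 71.4 to 104 in CDAHFD_sham and 53.9 to 83.6 in CDAHFD_RIC. All 9 rose with the diet, beside 59.1% of all genes. With RIC on CDAHFD, 2 of the 9 fell (Acta2 by 1.75, from 8.44 ± 4.09 to 1.67 ± 0.736 FPKM, and Des by 0.33), beside 14.3% of all genes, and 7 did not pass. The 4 portal fibroblast markers summed to 0.566 to 1.37 FPKM in NC_sham, 4.16 to 8.12 in CDAHFD_sham and 3.98 to 5.24 in CDAHFD_RIC. With RIC on CDAHFD, Mfap4 fell by 0.46 (adjusted p = 0.00790) and Thy1 by 0.37 (adjusted p = 0.0403), beside 14.3% of all genes. The other 2 of the 4 did not pass. The 7 macrophage markers summed to 21.3 to 25.9, 96.2 to 127 and 82.6 to 146 FPKM in NC_sham, CDAHFD_sham and CDAHFD_RIC. Of the 7, 1 rose with RIC on CDAHFD (Adgre1, by 0.67, adjusted p = 0.0300), beside 6.41% of all genes, and 6 did not pass. The 5 neutrophil markers summed to at most 0.697 FPKM in NC_sham, where Ly6g and Mpo were at 0, to 12.7 to 35.0 in CDAHFD_sham and to 12.3 to 18.7 in CDAHFD_RIC, where Mpo was at 0. Of the 3 neutrophil markers tested, S100a8 fell with RIC by 0.66 (adjusted p = 0.0341), beside 14.3% of all genes, and the other 2 did not pass. Of 4 smooth and skeletal muscle markers only 1 was tested, Myh11. It fell by 0.33 with RIC on CDAHFD (adjusted p = 0.00921), beside 14.3% of all genes. By sample, the stellate sum was highest in CDAHFD_sham replicate 3, the sample that was highest for 9 of the 10 genes, and lowest in CDAHFD_RIC replicate 1; within CDAHFD_RIC it was highest in replicate 2. The 5 cholangiocyte markers summed to 7.61 to 24.0 FPKM in CDAHFD_sham and 4.64 to 18.5 in CDAHFD_RIC, and none of the 5 passed with RIC. Their sum was highest in CDAHFD_sham replicate 3 and CDAHFD_RIC replicate 4 and lowest in CDAHFD_sham replicate 2 and CDAHFD_RIC replicate 3, the same extremes as for most of the 10 genes. The 5 endothelial markers summed to 16.6 to 27.8 and 8.81 to 26.8 FPKM, and none passed with RIC. The part of these cell markers in the members' differences was not tested.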

How the data were processed

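RNA from 19 mouse livers was sequenced. The authors deposited a single table of FPKM, a column for each sample; which program and annotation made these values is not given in the sources used here. Per the submitters' processing notes, which state no roles, the build was mm10 and the tools were R 3.4.1, DESeq2 1.18.1, HTSeq 0.13.5, HISAT2 2.2.1, Trimmomatic 0.38 and FastQC 0.11.9. Of 55335 entries, 3225 without a name (0.123% to 0.204% of the FPKM) were left out. FPKM are not counts, so no count model was used. Depth was taken from single-exon genes by setting the most common low value of a sample to 1 read. Low values within 0.02 of whole reads made up 16.1% to 18.4%, where evenly spread values would give 4%, and all read numbers are therefore estimates.

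Entries averaging 0.1 FPKM or more, 17311 in number, were tested as log2(FPKM + 1) with limma 3.58.1 in R 4.3.3. The model held a mean for each group, used every sample, allowed a trend and left 15 residual degrees of freedom. The groups shared a single estimate of spread per gene, although many low genes varied less on chow than on CDAHFD. Tests were two-sided, p-values were adjusted by Benjamini-Hochberg over the 17311 genes, with 0.05 as the threshold of the adjusted p. A pseudocount of 1 understates changes of low genes. On simulated data 92% to 96% of genes changed by a log2 of 1 and 46% to 50% of those changed by 0.5 were recovered. Changes were planted only in genes with a mean log2(FPKM + 1) above 1, with equal spread in all groups. These rates therefore do not describe the lower members, or comparisons of groups that differ in spread. Spans came from GENCODE by symbol (91.6% of entries matched). The members, lists and tests were chosen with earlier results of these data known. The related genes to be named by rule were, per list, up to 4 with the smallest p for diet and up to 2 for RIC on CDAHFD. The rule also named those most correlated with Timp1 and with the members' mean. Mmp11, Mmp19, Adamts6, Adamts14, Adamts15, Bmp1, Plg, Acta2, Des, Adgre1, Mfap4, Thy1, S100a8 and Myh11 were added after their values were seen. The values of 1 gene that this rule named are not reported here. Tables were handled with data.table (1.17.8), python 3.11.15, numpy 2.4.6 and pandas 2.3.3, exact tests with scipy 1.17.1 and plots with matplotlib 3.10.9. Alternatives covered filters, pseudocount, scaling, design, weights and left-out samples.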

Additional observations from a re-analysis of the deposited data

Results flagged for a closer look

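Of 41 sets of values in groups of 4 or 5 samples, 3 held a sample far from the others of its group by Dixon's criterion, which chance alone meets in about 1 set of 20. Timp1 was at 0.0530 FPKM in NC_RIC replicate 1 and at 0 in the other 4 samples of that group. Mmp13 was at 0.0351 FPKM in the same sample and at 0 in the other 4. These values correspond to 1 and 2 estimated reads. With the other 4 samples at 0, any value above 0 is flagged, so the rate of 1 in 20 does not apply to these sets. The ratio of Timp1 to Mmp13 was 2.01 in CDAHFD_RIC replicate 4, where the next highest sample of the group had 0.808; the same sample had the highest level of 9 of the 10 genes among the CDAHFD_RIC samples.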

How the results depend on the processing

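The 10 genes kept their rise in both diet comparisons in every alternative that tested them, at a floor of 1 FPKM 8 of them. For RIC on CDAHFD, 5 passed; 3 did so with no filter, with a pseudocount of 0.1, with median-ratio scaling and with the replicate number as a block, 2 at a common sum, 0 with only the groups compared and 8 without CDAHFD_sham replicates 2 and 5; leaving out 1 sample gave 2 to 9. Quantile normalization gave 4, of which Mmp13 was a rise. All genes passing there numbered 3582, against 1742 with only the groups compared and 2475 to 4111 with 1 sample left out. The labels do not say whether replicate numbers pair the samples. Deviations of same-numbered samples correlated weakly, at -0.162 to 0.136, which does not exclude a pairing. With the replicate block 3071 genes passed for RIC on CDAHFD. For RIC on chow, 68 genes passed, against 125 at a floor of 1 FPKM, 130 with median-ratio scaling, 2 with only the groups compared, 373 with array weights and 17 to 112 with 1 sample left out. For the interaction, 740 genes and 0 members passed, against 1323 and 2 without CDAHFD_sham replicates 2 and 5, 1 member with array weights, and 437 to 1067 genes and 0 to 2 members with 1 sample left out. The Timp1 to Mmp13 difference was -1.98 (p = 0.0571, exact permutation test, the smallest that design allows) without those 2 samples and -2.06 to -1.48 with 1 sample left out (p = 0.0286 to 0.0714, exact permutation tests). Signs changed for 3 values that did not pass: the Loxl1 interaction was 0.12 with a pseudocount of 0.1, Timp1 for RIC on chow was 0 without NC_RIC replicate 1 (0 to 0.0186 over samples left out), and Lox was -0.0022 without NC_RIC replicate 3 (-0.0022 to 0.0228). The causes of these shifts were not tested. Depth limits Timp1, Mmp13, Lox and Loxl1 on chow, where most values rest on a few reads or none.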
